A study of Homo sapiens with 18 samples.

Results

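The zinc finger genes described here are the protein-coding genes of human chromosome 19 whose symbol is ZNF followed by digits only. They were found by joining the RefSeq accessions of each row of the deposited RNA-seq table to gene symbols and by placing the symbols on hg19. The rule gave 231 of the 23500 rows of the table, which hold 233 of the 240 such symbols that RefSeq lists for the chromosome, because 2 rows join a pair of ZNF genes. Of the 7 other symbols, 6 matched no row and 1 shares its row with a coding gene of another name, which was left out. The chromosome also holds 1095 rows of other protein-coding genes, and 229 rows are ZNF genes of other chromosomes.

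The samples are ZR751 (ZR75-1) cells, an established ER+ breast cancer line that is wild type for MLL3 (KMT2C), a methyltransferase that places H3K4me1 at enhancers. Cells were stably transduced with a pLVTH lentivirus that carried 1 shRNA to MLL3 (ZR751shMLL3) or a control shRNA to luciferase (ZR751shLucif), were sorted for GFP, and were harvested at steady state at early passages. Each cell line gave 2 RNA-seq libraries and 2 ChIP-seq libraries for each of H3K4me1, SP1 and ERα, with an input for each line. Each line carries 1 hairpin, so the knockdown and the history of a line cannot be told apart, and p-values measure only the spread between libraries of 1 line.

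Most chromosome 19 ZNF genes encode C2H2 zinc finger proteins, many with a KRAB domain, and they lie in tandem clusters that arose by repeated duplication. A KRAB domain recruits TRIM28 (KAP1), a scaffold for the H3K9 methyltransferase SETDB1, HP1 proteins and histone deacetylases, and the fingers direct this complex to DNA, often to transposable elements. The bodies of these genes themselves commonly carry H3K9me3. SP1 is a zinc finger activator that binds GC boxes, and many housekeeping promoters hold them.

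Among the promoters with SP1 peaks, those of ZNF524, ZNF628 and ZNF57 ranked highest by the number of libraries and the signal rank of the peak, and they are shown with that of ZNF428, the most highly expressed member tested that had neither a GC box nor an SP1 peak by the definitions used here. Each sequence runs from 250 bases before to 49 bases after the first base of the canonical transcript (the 300 bases include that base), is read from GRCh37 in the direction of transcription, and has the GC box GGGCGG, or CCGCCC where it lies on the other strand, in capitals. ZNF524 lies at chr19:56111404-56111703 on the plus strand, ZNF628 at chr19:55987734-55988033 on the plus strand, ZNF57 at chr19:2900676-2900975 on the plus strand and ZNF428 at chr19:44123732-44124031 on the minus strand.
ZNF524: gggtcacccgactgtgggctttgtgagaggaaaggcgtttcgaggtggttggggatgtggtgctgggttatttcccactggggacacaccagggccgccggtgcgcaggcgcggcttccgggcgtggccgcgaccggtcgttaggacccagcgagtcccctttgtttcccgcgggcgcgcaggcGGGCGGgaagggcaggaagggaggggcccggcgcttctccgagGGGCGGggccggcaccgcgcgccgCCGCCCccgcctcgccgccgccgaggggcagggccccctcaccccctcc
ZNF628: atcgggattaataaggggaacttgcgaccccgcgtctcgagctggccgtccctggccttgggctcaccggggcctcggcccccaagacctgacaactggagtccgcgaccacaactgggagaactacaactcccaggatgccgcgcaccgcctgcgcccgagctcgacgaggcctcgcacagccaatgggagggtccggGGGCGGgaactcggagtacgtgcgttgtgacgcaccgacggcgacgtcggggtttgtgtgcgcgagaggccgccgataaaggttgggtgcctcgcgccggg
ZNF57: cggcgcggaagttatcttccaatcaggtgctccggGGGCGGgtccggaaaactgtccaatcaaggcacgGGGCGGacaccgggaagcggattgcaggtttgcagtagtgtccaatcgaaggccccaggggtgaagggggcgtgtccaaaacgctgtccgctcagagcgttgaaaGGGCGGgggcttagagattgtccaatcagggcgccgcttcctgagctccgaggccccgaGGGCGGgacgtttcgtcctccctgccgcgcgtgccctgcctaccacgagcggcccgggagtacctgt
ZNF428: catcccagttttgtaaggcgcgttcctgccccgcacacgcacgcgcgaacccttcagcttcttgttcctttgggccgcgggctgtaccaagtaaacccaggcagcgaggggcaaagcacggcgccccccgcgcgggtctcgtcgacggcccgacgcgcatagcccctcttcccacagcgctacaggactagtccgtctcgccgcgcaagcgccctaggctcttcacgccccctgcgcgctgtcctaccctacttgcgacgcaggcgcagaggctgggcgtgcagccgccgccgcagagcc
The promoter of ZNF57 holds 4 GC boxes, that of ZNF524 holds 3, that of ZNF628 holds 1 and that of ZNF428 holds 0, although the GC content of the ZNF428 promoter, 68.7%, is above that of ZNF628, 67.7%, and of ZNF57, 65.0%.

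The deposited expression values are FPKM, that is fragments scaled by transcript length and sequencing depth, and the reads behind a gene are unknown. All 7 luminal markers looked for (ESR1, GATA3, FOXA1, KRT8, KRT18, KRT19 and EPCAM) were at 10.8 FPKM or more in every library, and KRT5, KRT14, VIM, PTPRC and PECAM1 were at 0.372 or less. COL1A1, taken as a fibroblast marker, was at 13.1 to 17.8 FPKM. KMT2C was at 2.34 and 6.77 FPKM in shLucif and at 1.07 and 2.69 in shMLL3, so that the cell lines overlapped for the targeted gene. Its log2 fold change was -1.02 ± 0.54 (SE, limma on log2(FPKM + 0.5)). The authors checked the knockdown separately by qPCR, which is not part of these values. Replicate 1 of shLucif stood apart: over 11134 genes its log2 values correlated with those of the other libraries at 0.900 to 0.907, against 0.947 to 0.969 among the other libraries.

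Most chromosome 19 ZNF genes were expressed at low levels, where fewer expressing cells and less RNA per cell cannot be told apart in bulk RNA. The median over the 231 rows of the mean FPKM was 1.51, against 6.02 for the other protein-coding genes of the chromosome and 3.13 for ZNF genes elsewhere. 9 members were listed at 0 in every library, and 4 of these (ZNF729, ZNF98, ZNF99 and ZNF728) lie in 1 cluster. 14 members had a mean above 10 FPKM. ZNF581 led with 62.8 and 37.7 FPKM in shLucif and 58.2 and 67.9 in shMLL3, but its gene body overlaps that of its neighbour ZNF580 on the same strand, so that reads of the pair may not have been told apart. Many members are close paralogs, and how the authors' counting split reads between near-identical copies was not tested.

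The members fell into 10 clusters, defined as runs of at least 5 members with at most 500 kb between neighbours. The clusters hold 219 members and cover 25.7% of the sequence of the chromosome, and 12 members lie outside them. They are numbered C1 to C10 in the order of their hg19 positions. C1 spans chr19:2819866-2944969 (5 members), C2 chr19:8574562-9903856 (12) and C3 chr19:11670189-12750912 (23). C4, at chr19:19779605-24312770, is the longest at 4533.2 kb and holds 33 members. C5 spans chr19:35168544-35455133 (5), C6 chr19:36673178-38307940 (24) and C7 chr19:44029649-45004576 (23). C8 spans chr19:52074536-54083523 (37), C9 chr19:55987984-57183151 (16) and C10 chr19:57702868-58992597 (41).

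Levels varied between clusters. C4 was the lowest, with a median of the mean FPKM of 0.491, and 10 of its 33 members passed the filter on low values, which asked for a mean log2(FPKM + 0.5) above 1. C9 was the highest, with a median of 4.64, and its 10 tested members had a median of 25.4. The 10 tested members of C9 had a median transcript GC content of 68.9%, and those of C4 had 36.6%. In C10, 30 of 41 members passed the filter, with a median of 2.78 FPKM among those tested. Over the chromosome 113 members passed the filter, and the 118 that did not had a mean of at most 1.55 FPKM.

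The member with the highest mean is given for each cluster. ZNF57 led C1 with 3.83 and 3.05 FPKM in shLucif and 3.17 and 2.81 in shMLL3. ZNF414 led C2 with 16.4 and 7.47 FPKM in shLucif and 11.9 and 9.71 in shMLL3, and ZNF627 led C3 with 3.50 and 8.70 against 3.67 and 4.83. Both had shMLL3 values inside the shLucif range. ZNF91, which represses SVA and L1PA retrotransposons in primates, led C4 with 3.32 and 10.6 FPKM in shLucif and 5.94 and 7.11 in shMLL3. ZNF302 led C5 with 4.88 and 4.37 FPKM in shLucif and 3.92 and 2.99 in shMLL3. ZNF146 (OZF), a protein made of fingers with no KRAB domain, led C6 with 36.8 and 34.1 FPKM in shLucif and 27.7 and 26.5 in shMLL3, and both knockdown libraries lay below both controls. ZNF226 led C7 with 21.3 and 16.4 FPKM against 14.7 and 15.8, also without overlap. ZNF766 led C8 with 12.2 and 8.36 FPKM against 9.24 and 7.78, and ZNF547, whose row also lists a non-coding accession, led C10 with 17.8 and 8.89 against 11.5 and 10.5. Outside the clusters the highest tested members were ZNF358 (64.9 and 31.3 FPKM in shLucif, 34.6 and 39.5 in shMLL3), ZNF574 (13.05 and 12.3, 19.1 and 14.8) and ZNF296 (14.6 and 8.15, 14.0 and 12.9), all 3 with a transcript GC content above 60%.

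The comparison of shMLL3 with shLucif asked whether expression of the zinc finger clusters differed with the knockdown. The linear model of limma on log2(FPKM + 0.5) called 0 of the 113 tested members at an adjusted p under 0.05, and it called 1 of all 11134 genes tested, which is 0.00898%. At an unadjusted p under 0.05 it also gave 0 members, against 7.98% of all genes tested, and the lowest adjusted p of a member was 0.629. Of the members, 52 had a fold change above 0 and 61 below, with a median log2 fold change of -0.04 and a range from -0.55 to 1.33. The median over all genes tested was -0.10, that of the 652 other protein-coding chromosome 19 genes was 0.17, and that of the 159 ZNF genes of other chromosomes was 0.04. Within 0.25 of 0 on the log2 scale lay 61.1% of the members, 51.6% of the ZNF genes of other chromosomes and 42.3% of all genes tested. The fold change exceeded 1 in size in 1 member (0.885%), in 1 ZNF gene of another chromosome (0.629%) and in 4.50% of all genes, and these shares were not tested against each other. The median SE of a member was 0.30, as over all genes, and a change of that size in a single member was not detectable with 2 libraries a line.

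The cell lines did not overlap for 32 members, 16 higher and 16 lower in shMLL3, which is 28.3% of those tested against 42.9% of all genes tested (17.6% higher and 25.3% lower). The counts without overlap were thus below the background in both directions, and they are read as a description of these 4 libraries.

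**Figure D1:**
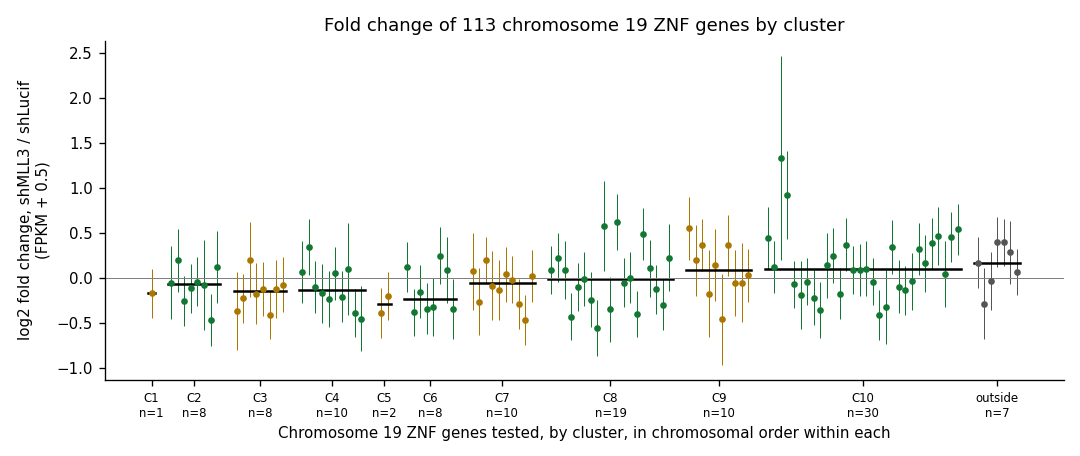
Log2 fold change of FPKM + 0.5 in shMLL3 against shLucif (y axis) for each of the 113 tested members, grouped by cluster in chromosomal order (x axis). Points are genes, vertical bars are standard errors from limma and black lines are cluster medians; 10 of the 11 medians lie between -0.29 and 0.10, and that of the 7 members outside clusters is 0.17.

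The 6 lowest members without overlap lie in 5 clusters. ZNF480 (C8, chr19:52800422-52829175) was at 7.05 and 4.54 FPKM in shLucif and at 3.40 and 4.06 in shMLL3, a log2 fold change of -0.55 ± 0.31 (SE, adjusted p = 0.641, limma). ZNF561 (C2, chr19:9715356-9731912) was at 6.33 and 7.02 FPKM against 3.97 and 5.53. ZNF227 (C7, chr19:44711700-44741421) was at 5.20 and 4.07 FPKM against 3.03 and 3.38. In each of these the nearer knockdown library lay within 1 FPKM of a control. ZNF614 (C8) was at 1.86 and 2.07 FPKM against 1.23 and 1.44, ZNF44 (C3) at 2.52 and 2.96 against 1.90 and 1.96, and ZNF586 (C10) at 3.27 and 2.59 against 1.94 and 2.22. The 6 fold changes ran from -0.55 to -0.41 and none passed the test (adjusted p 0.641 to 0.668). With the trend with transcript GC content removed from each library, a step described below, these 6 fold changes ran from -0.20 to -0.06.

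The 6 highest members without overlap lie in C8, C9 and C10, the last 3 clusters of the chromosome. These clusters hold 19, 10 and 30 of the 113 tested members, and ZNF480, ZNF614 and ZNF586 of the lowest members also lie in C8 or C10. ZNF543 (C10, chr19:57831840-57842138) was at 0.793 and 3.07 FPKM in shLucif and at 3.68 and 3.46 in shMLL3, a log2 fold change of 0.92 ± 0.49 (SE, adjusted p = 0.629, limma). Its shLucif replicate 1 value lay far below the 3 others, which were alike. ZNF611 (C8, chr19:53206066-53238326) was at 1.12 and 1.94 FPKM against 2.78 and 2.39, and ZNF160 (C8) at 5.51 and 7.32 against 10.0 and 8.31. ZNF628 (C9) was at 4.09 and 2.15 FPKM against 5.02 and 4.24. ZNF446 (C10), a SCAN domain zinc finger gene, was at 8.28 and 9.78 FPKM against 15.3 and 11.6, and ZNF837 (C10) at 2.74 and 1.54 against 3.29 and 2.83. These fold changes ran from 0.47 to 0.92, with adjusted p of 0.629 to 0.671. With the GC content trend removed they ran from 0.10 to 1.09. Those of ZNF837, ZNF446 and ZNF628 were then smaller, and those of ZNF543, ZNF611 and ZNF160 were larger.

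The member with the largest fold change overlapped between the lines. ZNF460 (C10), picked out after its values were seen, was at 0.278 and 9.36 FPKM in shLucif and at 3.81 and 10.8 in shMLL3, so that its log2 fold change of 1.33 ± 1.13 (SE) rested on shLucif replicate 1. Without that library no member was called; without shLucif replicate 2, 1269 genes and 4 members were called, namely ZNF460, ZNF543, ZNF808 and ZNF580, with the lone control taken to vary like the knockdown libraries. ZNF274, named for its known part in recruiting SETDB1 to the 3' ends of ZNF genes, was at 8.68 and 9.48 FPKM in shLucif and at 11.2 and 7.02 in shMLL3.

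By cluster, medians moved little and without a test. Among the 8 clusters with at least 5 tested members, the median log2 fold change was lowest in C6 (-0.23, 8 members), C3 (-0.15, 8) and C4 (-0.13, 10), and highest in C10 (0.10, 30) and C9 (0.09, 10). In C3, 7 of 8 tested members were below 0, and in C10, 18 of 30 were above 0, where 59.1% of all genes tested lay below 0. The 7 tested members outside clusters had a median of 0.17, the value of the other chromosome 19 genes. In C9, C3, C7 and C4, and to a lesser degree in C2 and C8, the controls differed from each other by more than the lines did. In C9 the median deviation of a member from its own mean over the 4 libraries was 0.43 in shLucif replicate 1 and -0.57 in replicate 2 on the log2 scale, while the shMLL3 libraries were at 0.11 and -0.05. In C3 the order was turned, with -0.22 in shLucif replicate 1 and 0.34 in replicate 2, against -0.08 and -0.07 in shMLL3. C7 had 0.36 and -0.19 in shLucif and -0.06 and -0.05 in shMLL3, and C4 had -0.14 and 0.27 against -0.06 and -0.02. In C9, C3, C7, C4 and also C10 the knockdown libraries lay between the controls. The median of C9 was thus 0.56 without shLucif replicate 1 and -0.35 without replicate 2, and that of C3 was -0.42 and 0.17. C7 had 0.20 and -0.48, C4 had -0.34 and 0.13, and C6 had -0.05 and -0.34. C2 had -0.27 and -0.08, C8 had -0.05 and -0.14, and C10 had 0.04 and 0.10. The order of the clusters therefore rested on single controls, with C3 the lowest without shLucif replicate 1 and C7 the lowest without replicate 2.

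**Figure D2:**
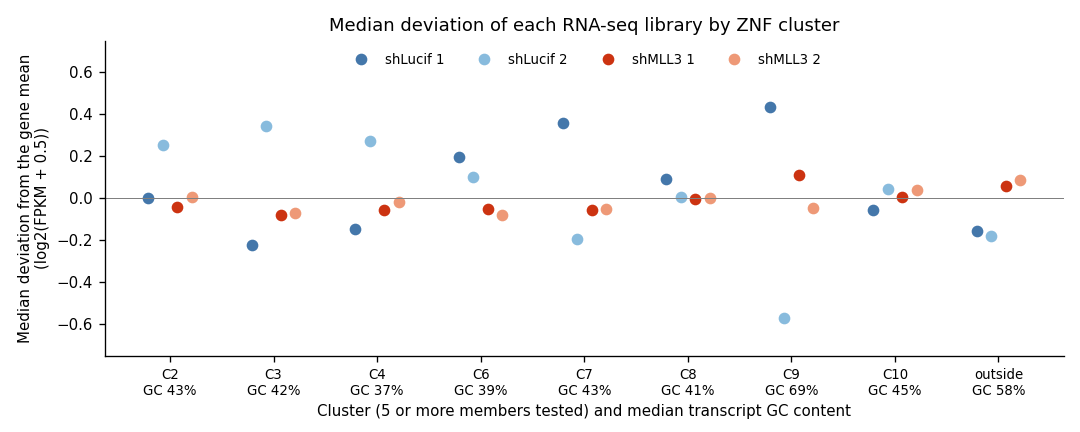
Median over tested members of the deviation from the gene's mean log2(FPKM + 0.5) (y axis) in each of the 4 RNA-seq libraries, by cluster (x axis, with the median transcript GC content). The shLucif libraries sit at 0.43 and -0.57 in C9 and at -0.22 and 0.34 in C3, on opposite sides of the shMLL3 libraries.

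Transcript GC content moved with these values. The tested members had a median GC content of 43.2%, the other chromosome 19 genes 61.1% and all genes tested 49.0%. Over the 10823 genes with a known GC content the log2 fold change followed it with a Spearman rho of 0.54, and over the 113 members with a rho of 0.35; the points share the same 4 libraries and are not independent. The 25 tested members with a GC content of 50% or more had a median log2 fold change of 0.09, and the 88 below 50% had -0.07. In shLucif replicate 2 the 25 deviated by a median of -0.48 and the 88 by 0.10. When the trend with GC content was removed from each library, the order of the groups turned: the member median became 0.17, with 83 of 113 above 0, that of the other chromosome 19 genes became -0.04, and no member was called. C9 then had -0.14, the only cluster of the 8 below 0, and C8 had 0.32. A member median above or below that of its chromosome therefore depended on this step, and the part of GC content in the result was not tested.

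**Figure D3:**
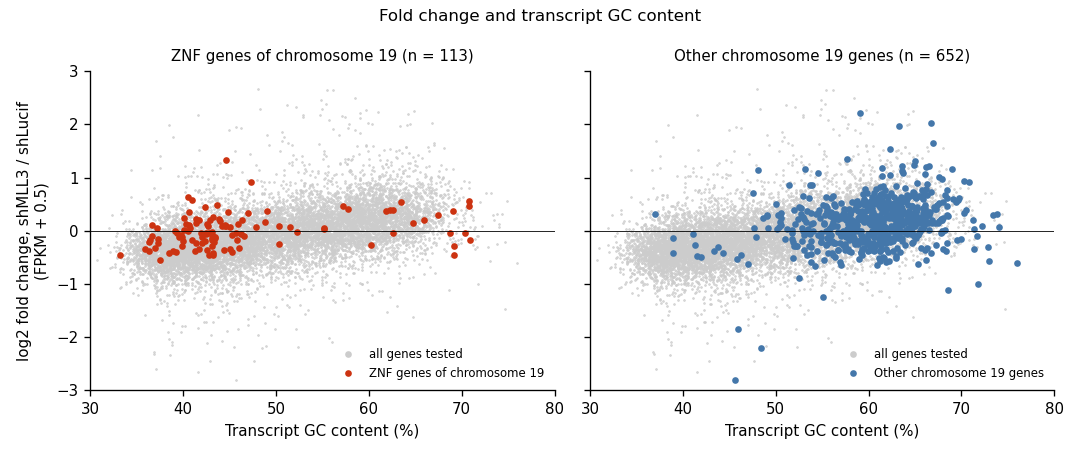
Log2 fold change in shMLL3 against shLucif (y axis) against transcript GC content in percent (x axis), with all genes tested in grey (23 lie beyond the axis) and in colour the 113 members (left) or 652 other chromosome 19 genes (right). The members gather near a GC content of 43.2% and a smaller group lies above 60%, while the other genes gather near 61.1%.

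Of the proteins that work with KRAB zinc fingers, a list of 20 was examined, and all 20 were expressed and tested. None was called after adjustment, and 3 (15%) had an unadjusted p under 0.05 in limma, against 7.98% of all genes tested. 13 were below 0 (65%, against 59.1% of all genes tested) and 7 above, and the median log2 fold change was -0.10, that of all genes. The cell lines did not overlap for 50% of the list, against 42.9% of all genes tested, and these shares were not tested. TRIM28, which lies just beyond C10, was at 153 and 135 FPKM in shLucif and at 197 and 169 in shMLL3, and SETDB1 was at 22.3 and 15.8 against 11.9 and 14.0. Neither overlapped, in opposite directions, with log2 fold changes of 0.34 ± 0.27 and -0.53 ± 0.30 (SE, adjusted p 0.695 and 0.640, limma). With the GC content trend removed these fold changes were 0.04 for TRIM28 and -0.47 for SETDB1. The lowest of the list were the remodeller SMARCAD1 (10.8 and 7.62 FPKM against 3.66 and 5.08, log2 fold change -0.99) and the deacetylase HDAC2 (14.8 and 8.12 against 6.14 and 5.60, -0.85). The highest were the DNA methyltransferase DNMT3A (4.59 and 4.39 against 6.77 and 8.66, 0.71) and MPHOSPH8, a HUSH complex subunit that reads H3K9me3 (8.05 and 4.24 against 7.27 and 8.50, 0.39). MPHOSPH8 overlapped between the lines. With the GC content trend removed SMARCAD1 was at -0.60, HDAC2 at -0.48, DNMT3A at 0.68 and MPHOSPH8 at 0.64. SP1 itself was at 16.7 and 23.7 FPKM in shLucif and at 13.7 and 18.3 in shMLL3.

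SP1 peaks were next counted within 1000 bp of the start of each member. Peaks were called by the authors in each library against input, and the lists differ in kind: at an FDR of 0.01 the shLucif lists hold 0 and 0 peaks and the shMLL3 lists 204178 and 12065. At that FDR 56 members (24.2%, Wilson 95% interval 19.2 to 30.2) had a peak in shMLL3 replicate 1 and 81 (35.1%, 29.2 to 41.4) in replicate 2. The same shares were 21.8% and 34.1% for the other chromosome 19 genes and 19.1% and 29.4% for all protein-coding genes. In both replicates 30 members had a peak, a count that was not made over other genes. The difference between lines, 0% ± 0 against 29.7% ± 7.65 (SD, n = 2 each), had an exact permutation p of 0.333, two-sided, the smallest that 2 against 2 libraries can give, and its direction was fixed by the empty shLucif lists.

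Taking the 20000 peaks of highest signal from every library gave each list the same length. All shLucif peaks in these lists failed the FDR used above, and at most 12065 of those in shMLL3 replicate 2 passed it. The share of member promoters with a peak was then 5.63% and 6.06% in shLucif and 6.49% and 39.4% in shMLL3, so that shMLL3 replicate 2 alone stood apart. It stood apart in the same way for the other chromosome 19 genes (5.11%, 4.75%, 6.39% and 38.0%) and for all protein-coding genes (3.57%, 4.08%, 4.43% and 33.5%). 64 members had a peak in that library alone and 13 in both shMLL3 libraries. 5 had one in both shLucif libraries (ZNF57, ZNF443, ZNF14, ZNF223 and ZNF784). ZNF57 was the only member with a listed peak in all 4. Since the shLucif peaks did not pass the FDR, they do not show SP1 binding at these promoters in control cells. These combinations were not counted over other genes, so the counts describe the members only. Without shMLL3 replicate 2 the difference between lines fell from 17.1 to 0.649 percentage points.

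**Figure D4:**
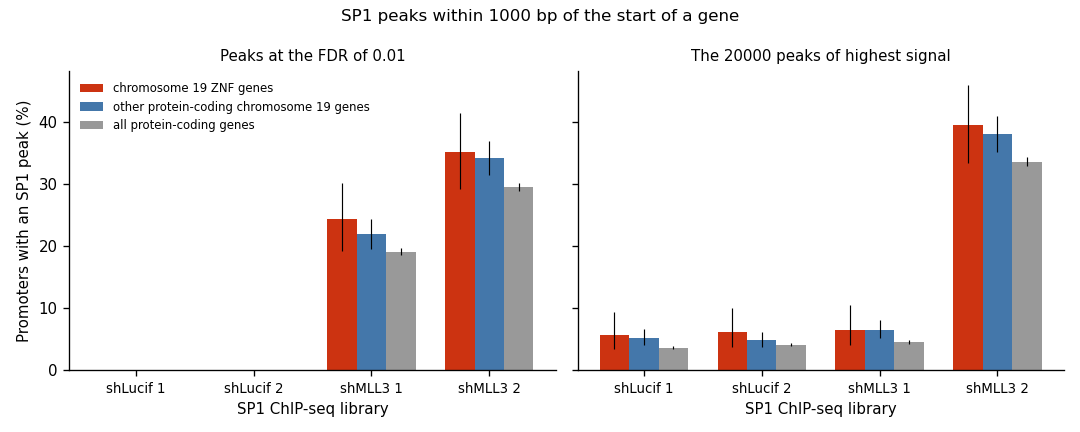
Percent of promoters with an SP1 peak within 1000 bp of the gene start (y axis) in each SP1 library (x axis), for the members, the other chromosome 19 genes and all protein-coding genes, with Wilson 95% intervals as error bars, at the FDR of 0.01 (left) and among the 20000 peaks of highest signal (right). The members follow the other genes in each library, and among the 20000 peaks only shMLL3 replicate 2 exceeds 6.49% for the members. The shLucif peaks on the right all failed the FDR used on the left.

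The promoters with the most SP1 evidence were led by ZNF524 and ZNF628, both in C9. In shMLL3 replicate 1 their peaks ranked 87 and 97 by signal among 204178, and in replicate 2 they ranked 1912 and 1183 among 12065. ZNF57 followed at ranks 157 and 776, and ZNF564, ZNF784 and ZNF823 ranked 384, 448 and 913 in replicate 2 but 87260 or lower in replicate 1. ZNF524, whose product binds telomeric repeats, was at 23.3 and 31.8 FPKM in shLucif and at 33.6 and 36.9 in shMLL3. ZNF564 (C3) was at 2.17 and 3.83 FPKM against 2.60 and 2.67, ZNF784 (C9) at 7.32 and 3.28 against 5.93 and 5.12, and ZNF823 (C3) at 2.18 and 2.88 against 2.05 and 2.11. Of these genes ZNF524 was the highest and ZNF823 the lowest in mean FPKM.

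SP1 peaks were also counted in members above and below the filter on low expression. In shMLL3 replicate 2 at the FDR of 0.01, 54.9% of the 113 tested members had a promoter peak (Wilson 95% interval 45.7 to 63.7) and 16.1% of the 118 below the filter (10.6 to 23.8). Over all protein-coding genes the shares were 47.1% and 5.12%. In replicate 1 they were 30.1% (22.4 to 39.1) and 18.6% (12.6 to 26.6) for members, and 25.4% and 10.4% for all genes. The intervals take promoters as independent, and shares above and below the filter were not tested against each other. Among the 20000 peaks of highest signal they were 61.9% and 17.8% for members in replicate 2 but 6.19% and 6.78% in replicate 1. Over all protein-coding genes they were 53.3% and 6.47% in replicate 2 and 6.72% and 1.29% in replicate 1. In this shorter list of replicate 1, members above the filter thus did not hold more peaks, while genes above it as a whole did. By fold change the members did not separate: the median log2 fold change was 0.03 for the 22 tested members with a peak in both shMLL3 libraries, -0.05 for the 52 with a peak in 1 and -0.04 for the 39 with none.

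A GC box, GGGCGG on either strand with overlapping matches counted, was found in 156 of the 231 member promoters of the kind printed above (67.5%), and in 67.9% of the promoters of other chromosome 19 genes and 63.2% of all 18189. In members with an SP1 peak among the 20000 of shMLL3 replicate 2 it was found in 75.8%, and in those without one in 62.1%, while over all genes these shares were 79.1% and 55.2%. ZNF480, the member with the lowest fold change, held 16 GC boxes, the highest number among members, and had no SP1 peak in any library at either definition.

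H3K4me1 at member promoters was sparse in both lines. At the FDR of 0.01 a peak lay within 1000 bp of the start in 12 and 22 members in shLucif (5.19% and 9.52%) and in 2 and 17 in shMLL3 (0.866% and 7.36%). Over all protein-coding genes the shares were 22.5% and 27.1% against 2.92% and 12.7%, and over the other chromosome 19 genes 9.22% and 12.7% against 0.457% and 6.21%. The member means, 7.36% ± 3.06 in shLucif and 4.11% ± 4.59 in shMLL3 (SD, n = 2), had an exact permutation p of 0.667, two-sided. The lists hold 141158 and 192201 peaks in shLucif and 28599 and 109586 in shMLL3, and without shMLL3 replicate 1, the shortest, the difference of -3.25 percentage points became 0.

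Few promoters carried the mark in more than 1 library. 44 members had an H3K4me1 peak in at least 1 library and 4 in both shLucif libraries. ZNF296 alone had one in both shMLL3 libraries and so in all 4. The other 3 of the 4 with one in both shLucif libraries, ZNF414, ZNF507 and ZNF575, had none in shMLL3. These combinations were not counted over other genes. ZNF507 was at 2.91 and 4.84 FPKM in shLucif and at 3.33 and 4.04 in shMLL3, and ZNF575 at 2.03 and 1.34 against 1.15 and 1.19.

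Inside the clusters H3K4me1 peaks were rarer than on the rest of chromosome 19. Their summits numbered 50 and 67 in shLucif and 9 and 73 in shMLL3, or 3.48, 4.67, 0.627 and 5.08 per Mb of sequence, against 19.5, 28.9, 2.94 and 15.3 per Mb outside. The rest of the chromosome was thus denser by 5.60, 6.18, 4.70 and 3.01 times. The clusters hold 25.7% of the sequence and 5.82%, 5.30%, 6.87% and 10.3% of the peaks of the chromosome. The GC content of the clusters was 43.7% and that of the rest 50.0%, and its part in the densities was not tested. As a share of all peaks of a library, the clusters held 0.0354% and 0.0349% in shLucif and 0.0315% and 0.0666% in shMLL3 (exact permutation p = 1, two-sided). ERα peaks at the same FDR numbered 201 and 2 in the clusters in shLucif and 0 and 101 in shMLL3, so that replicates differed more than lines. The ERα lists also differ in length, with 98579 and 3797 peaks in shLucif and 764 and 31912 in shMLL3. As shares of these lists the clusters held 0.204% and 0.0527% in shLucif and 0% and 0.316% in shMLL3.

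Most of these summits lay in C7, C9 and C10. These clusters held 43 of the 50 summits in shLucif replicate 1, 47 of 67 in replicate 2 and 45 of 73 in shMLL3 replicate 2. C4, the longest cluster, held 3 and 5 summits in shLucif and 1 and 12 in shMLL3, and C1 and C5 held 0 in both shLucif libraries. 19 of the 50 peaks of shLucif replicate 1 overlapped a peak of replicate 2, and 12 overlapped one of shMLL3 replicate 2. Of the peaks with these summits, between 11.1% and 26.0% in a library overlapped the 1000 bp on each side of a member start.

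**Figure D5:**
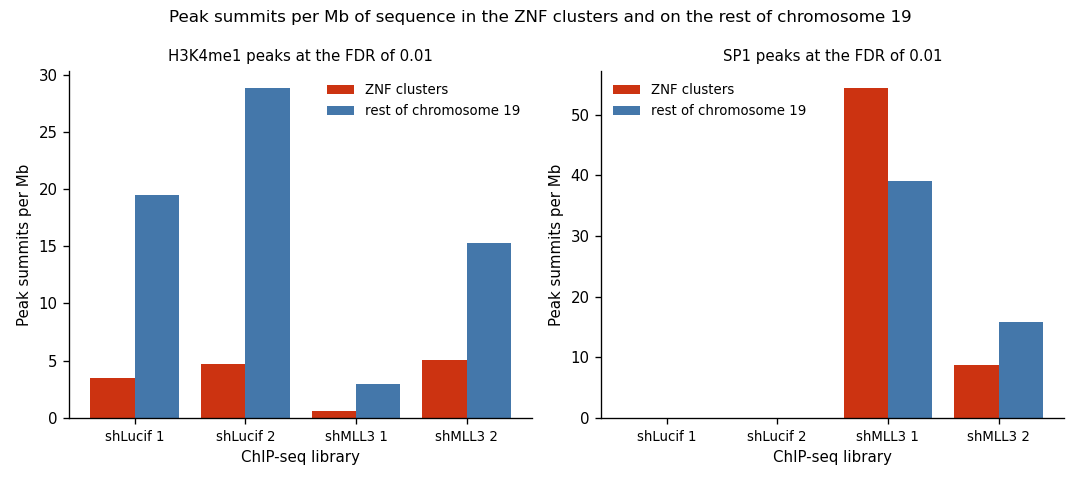
Peak summits per Mb of sequence (y axis) of H3K4me1 (left) and SP1 (right) at the FDR of 0.01 in each library (x axis), inside the 10 ZNF clusters and on the rest of chromosome 19. H3K4me1 is less dense in the clusters in all 4 libraries, and the 2 shMLL3 libraries of SP1 go opposite ways, with 54.5 against 39.0 per Mb in replicate 1 and 8.71 against 15.9 in replicate 2.

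SP1 summits in the clusters differed between the 2 shMLL3 libraries in number and place. Replicate 1 had 782 summits in the clusters, 54.5 per Mb against 39.0 on the rest of the chromosome, and 230 of them lay in C4. Replicate 2 had 125, 8.71 per Mb against 15.9. Of the peaks with these summits, 7.29% in replicate 1 and 69.6% in replicate 2 overlapped the 1000 bp on each side of a member start. Of the 125, 41 overlapped a peak of replicate 1. Among the 20000 peaks of highest signal the clusters held 67 and 87 in shLucif and 66 and 167 in shMLL3, or 0.335%, 0.435%, 0.330% and 0.835% of each list (exact permutation p = 1, two-sided).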

How the data were processed

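RNA-seq and ChIP-seq of ZR751shMLL3 and ZR751shLucif cells were analysed from the deposited files. The authors aligned RNA-seq reads with TopHat2 2.0.13 and made the FPKM values with Cufflinks and Cuffnorm 2.2.1, as 1 table of gene rows named by RefSeq accessions. For ChIP-seq the authors aligned 50-base reads to hg19 with BWA 0.7.5a-r405 and called peaks with SPP against input in each library; the deposited lists hold the peak signal and the -log10 of the FDR (q-value). Reads per gene are unknown from FPKM.

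Accessions were joined to symbols in RefSeq (names only), and positions, gene starts, transcript GC content and length were taken from GENCODE v44 on GRCh37. limma 3.58.1 in R 4.3.3 was fitted to log2(FPKM + 0.5) for genes with a mean above 1, shMLL3 against shLucif, 2 libraries each, with Benjamini-Hochberg adjustment over all genes tested, and the fit was tested on simulated data. Fold changes are on the log2(FPKM + 0.5) scale, which understates those of low genes. A surrogate variable, which the authors removed, was used as an alternative, since 1 residual degree of freedom would remain. Peaks at an FDR of 0.01 that overlapped the 1000 bp on each side of a gene start by 1 bp were counted, and summits were counted in clusters; lines were compared by exact permutation tests. Since the SP1 lists of shLucif hold no peak at that FDR, the share of SP1 peaks in clusters is given for the 20000 peaks of highest signal. Wilson intervals cover counting error only. They take promoters as independent, although members that start close together, such as ZNF565 and ZNF146, can share a peak.

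Named were the 6 highest and 6 lowest members whose lines do not overlap, the member of highest mean FPKM in each cluster and the 3 highest outside, 6 members by SP1 promoter peaks, KMT2C, SP1, TRIM28, SETDB1 and the 2 largest changes each way among the KRAB partners. No member passed the adjusted p. Others are said to be chosen by their values or known roles. The members and lists were chosen with earlier results of these data known. Same-numbered RNA-seq libraries did not deviate together (correlation 0.0374 across 11134 genes), so the numbers were not used as pairs.

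Promoter sequences are from GRCh37. Input libraries were not analysed here beyond their use by the authors.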

Additional observations from a re-analysis of the deposited data

How the results depend on the processing

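The number of chromosome 19 ZNF genes past the adjusted p stayed at 0 with a pseudocount of 0.1 or 1, without the filter on low values (222 members, 9 with an unadjusted p under 0.05), with a filter above 3 (19 members), with quantile normalization, with the GC content or the GC content and length trends removed, with the replicate block and with symbols that carry a letter; it was 1 (ZNF543) with 1 surrogate variable removed, and 0 to 4 when each library was left out. The number over all genes was 0 without the filter and with either trend removed, 473 with the surrogate variable, 33 with the replicate block and 2 to 1269 when a library was left out, the highest without shLucif replicate 2. The member median of -0.04 became -0.0109 with quantile normalization, 0.17 with the GC content trend removed, 0.18 with length as well, and -0.0679 for members with a GC content under 50%, an alternative chosen after seeing the data; it ran from -0.0258 to -0.00501 when a library was left out. The cause of these moves was not tested. The replicate block left every fold change the same and called 33 genes in all and no member. Without the filter on low values, the 9 members with an unadjusted p under 0.05 in limma were 4.05% of the 222. Over all 18215 genes of that fit the share was 10.2%, so the member share was below the background. These 2 shares were not tested against each other.

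The highest minus the lowest cluster median, 0.33, ran from 0.29 to 0.98 when a library was left out (0.98 without shLucif replicate 1, 0.65 without shLucif replicate 2); the filter above 3 left too few members by cluster for a value. At an FDR of 0.01 or 0.001 the sign of the difference in promoters with an SP1 peak (13.9 to 35.7 percentage points) was fixed by the empty shLucif lists and says nothing about stability. Among the 20000 peaks it was 17.1, and 0.649 without shMLL3 replicate 2, chosen after seeing the data. For H3K4me1 at promoters the difference of -3.25 reversed to 0.433 among the 20000 peaks of highest signal and ran from -6.49 to 0 when a library was left out. For H3K4me1 peaks in clusters the difference of 0.0139 percentage points ran from -0.00367 to 0.0315, and for SP1 peaks, 0.198, from -0.055 to 0.45; both reversed without shMLL3 replicate 2. An FDR of 0.001 gave no value for the shares in clusters, since some lists hold no peak there, and no paired fit of the peak shares was run. With 2 libraries a line the exact permutation test of a peak comparison could not reach the threshold.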
